A study of Homo sapiens with 48 samples.

Results

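The Jumonji C (JmjC) histone demethylase family, represented by 8 genes, was followed through low oxygen in 2 human prostate cancer cell lines. The probes taken were those whose symbol on the array was a listed member under its older or current name: KDM3A (on the array as JMJD1A), KDM3B, JMJD1C, KDM4A (JMJD2A), KDM4B (JMJD2B), KDM4C (JMJD2C), KDM5B and KDM6B. These were 11 probes of 47323, for 8 genes, and all 8 genes were among the 16438 that were tested. PC-3, a line from a bone metastasis, and 22Rv1, a line from a xenograft, were kept for 24 h at 37 °C in a hypoxia chamber at 5, 2, 1, 0.5, 0.2 or 0% O2. Each level of each line had its own normoxia control in 95% air. With 2 replicates of every condition there were 48 Illumina bead arrays in 24 groups of 2. Whether the replicates came from separate cultures is not stated, and the spread behind each p-value may be technical.

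JmjC demethylases remove methyl groups from histone lysines with iron, 2-oxoglutarate and molecular oxygen, so oxygen is a substrate of the reaction. KDM3A and KDM3B act on methylated lysine 9 of histone H3 (H3K9), and JMJD1C is their relative. The KDM4 enzymes act on H3K9 and H3K36, KDM5B on H3K4 and KDM6B on H3K27. Several of these genes are known targets of the hypoxia-inducible factors (HIF). The arrays measured mRNA, not enzyme activity or histone marks.

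HIF binds DNA at a core of ACGTG or GCGTG. The promoter windows of the 3 genes that rose in both lines, KDM3A, KDM4B and KDM5B, are printed with that of KDM4C. Counted on both strands, the KDM4C window held more cores than any other member's window. Each window runs 5′ to 3′ on the gene's strand from 250 bases before to 50 after a transcript start (RefSeq, GRCh38.p14), and capitals mark every core on either strand.
KDM3A, chr2:86441121-86441420, plus strand: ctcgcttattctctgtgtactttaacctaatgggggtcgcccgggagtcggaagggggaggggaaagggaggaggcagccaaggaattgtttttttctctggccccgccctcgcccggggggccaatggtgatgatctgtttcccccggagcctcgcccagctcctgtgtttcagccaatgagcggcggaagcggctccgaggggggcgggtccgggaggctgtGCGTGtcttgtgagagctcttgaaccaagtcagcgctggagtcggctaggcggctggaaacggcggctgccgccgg
KDM4B, chr19:4968863-4969162, plus strand: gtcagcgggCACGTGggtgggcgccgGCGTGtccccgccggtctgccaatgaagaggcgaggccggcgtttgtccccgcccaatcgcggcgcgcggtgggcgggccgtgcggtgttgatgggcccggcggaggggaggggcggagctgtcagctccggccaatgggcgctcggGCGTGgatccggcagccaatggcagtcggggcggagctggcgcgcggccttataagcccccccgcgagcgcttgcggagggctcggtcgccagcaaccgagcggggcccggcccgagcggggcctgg
KDM5B, chr1:202808372-202808671, minus strand: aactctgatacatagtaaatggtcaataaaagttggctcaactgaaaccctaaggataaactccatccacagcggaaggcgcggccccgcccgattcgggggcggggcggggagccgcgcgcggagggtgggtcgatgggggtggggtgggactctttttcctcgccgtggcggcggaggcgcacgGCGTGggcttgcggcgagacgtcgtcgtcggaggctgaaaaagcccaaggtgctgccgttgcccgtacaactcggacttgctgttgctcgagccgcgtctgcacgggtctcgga
KDM4C, chr9:6757723-6758022, plus strand: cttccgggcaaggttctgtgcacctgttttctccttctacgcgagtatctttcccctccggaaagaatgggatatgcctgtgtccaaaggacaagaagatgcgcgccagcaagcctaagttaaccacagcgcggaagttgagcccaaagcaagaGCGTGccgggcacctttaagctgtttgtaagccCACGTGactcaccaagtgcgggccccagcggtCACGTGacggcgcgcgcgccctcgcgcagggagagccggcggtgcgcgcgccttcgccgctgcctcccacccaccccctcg
Counted on both strands, so that a CACGTG counts as 2 overlapping cores, the KDM4C window held 5 cores and the KDM4B window 4. The KDM4C window held 2 CACGTG and the KDM4B window 1, and their order rests on this way of counting. The KDM3A window held 1 core, 26 bases before the start, and the KDM5B window 1 core, 64 bases before it. Of the other members KDM4A had 1 core and KDM3B 0. Windows at the 3 JMJD1C starts held 0, 2 and 0 cores, and those at the 2 KDM6B starts 1 and 0. The second KDM3A window overlaps the first and holds the same core. Among all 35116 windows of the same length, 48.4% held at least 1 core, 10.1% at least 3 and 4.4% at least 4. A match in these letters is a description of the window, not a site of binding.

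The lines matched their names on the arrays. The prostate genes KLK2 and FOLH1 were detected on all 24 22Rv1 arrays and on 0 PC-3 arrays, although KLK3 was detected on 0 arrays of either line. CAV1 had a mean log2 level of 12.4 in PC-3 and 4.87 in 22Rv1. Of 5 markers of other cells, PTPRC and CDH5 were detected on 0 arrays, CD68 on all arrays of both lines, PECAM1 on 22 PC-3 and 0 22Rv1 arrays, and COL1A1 on 21 and 6. Between 13750 and 16494 probes were detected per array (detection p under 0.01). The deposited tables give opposite labels to 2 arrays of 22Rv1 at 0.2% O2, replicate 2 of hypoxia and of normoxia. Labels were taken from the table of unprocessed intensities, and results at that level are given also with the labels exchanged and without these arrays. The exchange moves no change at another single level. It does enter the spread that all groups share, so calls at other levels can be lost with it.

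Levels are log2 normalized intensities, changes are log2 differences, hypoxia minus own control, each given ± its standard error (SE), and adjusted p-values come from limma with the Benjamini-Hochberg method over 16438 genes. A change was called at an adjusted p under 0.05. KDM3B, KDM5B and JMJD1C were detected on all 48 arrays, KDM4B on 46 and KDM3A on 43. KDM4C was detected on 28, KDM6B on 21 and KDM4A on 10, and values near background are compressed. The second KDM4B probe was detected on 0 arrays and was not tested.

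Averaged over the 6 oxygen levels, 3 of the 8 genes rose in PC-3 and 6 rose in 22Rv1, and 0 fell in either line, also at an unadjusted p under 0.05. KDM3A, KDM4B and KDM5B rose in both lines, and KDM4C, KDM6B and JMJD1C passed the test in 22Rv1 and not in PC-3. Of all genes tested, 10.7% were called higher and 13.3% lower in PC-3 (24.0% in all). In 22Rv1 19.8% were called higher and 22.8% lower (42.6% in all). The median change of the 8 genes was 0.25 in PC-3 and 0.83 in 22Rv1, against -0.01 for all genes in each line.

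**Figure D1:**
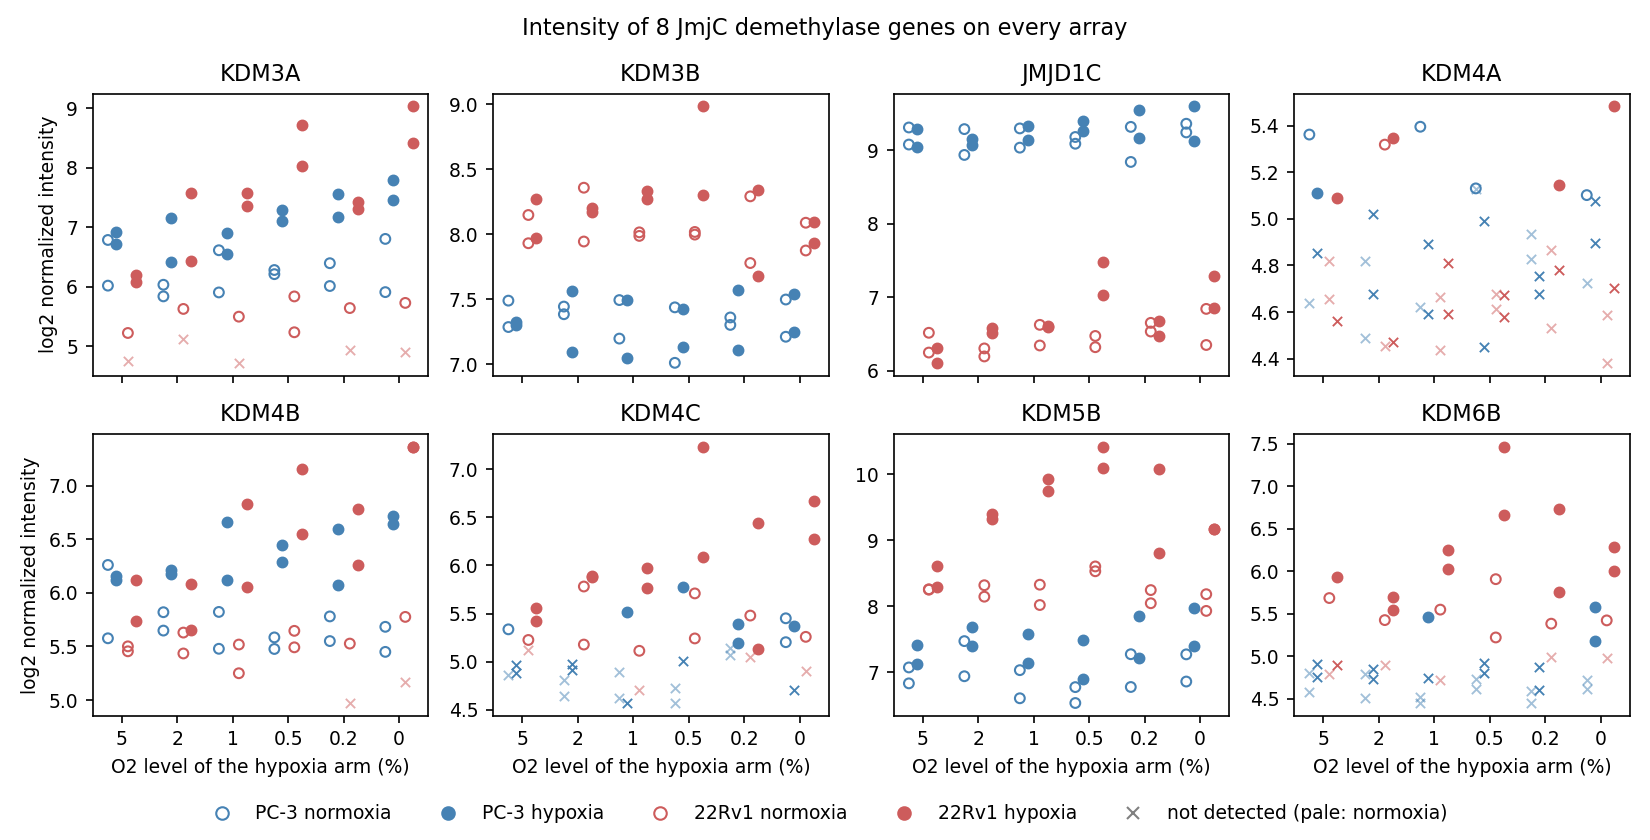
Log2 normalized intensity (y axis) of each gene's probe on every array, by the O2 level of the hypoxia arm in percent (x axis), for PC-3 (blue) and 22Rv1 (red); filled points are hypoxia arrays, open points their own controls, and crosses arrays without detection. The KDM3A points of 22Rv1 in hypoxia lie between 6.07 and 9.03, all above the 22Rv1 controls, while the KDM3B points of hypoxia and control overlap in both lines.

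KDM3A, the H3K9 demethylase, had the largest change of the 8 genes in both lines. In 22Rv1 the 12 controls lay between 4.72 and 5.83 (median 5.23) and the 12 hypoxia arrays between 6.07 and 9.03 (median 7.50). The ranges did not overlap, and 7 of the 12 control arrays detected the gene. The mean change was 2.24 ± 0.15 (adjusted p = 4.98e-14, n = 12 against 12 arrays, limma), a 4.74-fold rise, with a rise in 12 of 12 pairs. Across the genome this mean change ranked 37th from the highest of 16438 genes. In PC-3 the controls lay between 5.83 and 6.80 (median 6.12) and the hypoxia arrays between 6.41 and 7.78 (median 7.12). These ranges overlapped, yet each hypoxia array was above its own control in 12 of 12 pairs. The mean change in PC-3 was 0.85 ± 0.15 (adjusted p = 5.33e-05, limma), a 1.80-fold rise, and it ranked 136th.

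Level by level, the change of KDM3A in 22Rv1 was smallest at 5% O2 and largest at 0%. At 5% O2 the hypoxia arrays read 6.19 and 6.07 against controls at 4.74 and 5.22. At 1% they read 7.36 and 7.58 against 4.72 and 5.49, and at 0% 8.41 and 9.03 against 4.90 and 5.72. Every hypoxia array was above both controls of its level at these 3 levels, while not all of those controls detected the gene. The changes were 1.15 at 5%, 1.63 at 2%, 2.37 at 1%, 2.83 at 0.5%, 2.08 at 0.2% and 3.41 at 0%, each with an SE of 0.37. The change at 5% was not called (adjusted p = 0.659, limma) but was with the replicate pairs as a block (adjusted p = 0.0326, limma), and those at the 5 lower levels were called, from 0.00669 at 2% to 7.45e-09 at 0%. The call at 2% was lost without hypoxia replicate 2, when the change was 1.06 (adjusted p = 0.221, limma), and without normoxia replicate 1 (1.38, adjusted p = 0.0986, limma). It was also lost with the 2 doubted labels exchanged (adjusted p = 0.127, limma). At 0.2% the hypoxia arrays read 7.43 and 7.31 against controls at 4.94 and 5.64, where replicate 2, given second, is the doubted pair. The change at 0.2% was 0.41 with the 2 doubted labels exchanged, and it was then not called. In that fit the SE of a KDM3A change at other levels was 0.52. In PC-3 the changes ran from 0.42 at 5% to 1.27 at 0%, and the change at 0% was called (adjusted p = 0.0246, limma). Without normoxia replicate 1 the 0% change in PC-3 was 0.82 (adjusted p = 0.331, limma), and the call was also lost without either hypoxia replicate, with median centring and with the doubted labels exchanged. With the replicate block KDM3A was called in PC-3 at 0.5% (adjusted p = 0.0136, limma) and at 0.2% (adjusted p = 0.00222, limma) as well.

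KDM3B, the close relative of KDM3A with the same substrate, was not called in either line. In 22Rv1 its controls lay between 7.78 and 8.36 (median 8.00) and its hypoxia arrays between 7.68 and 8.98 (median 8.23), so the ranges overlapped. The mean change was -0.02 in PC-3, with a 95% confidence interval of -0.21 to 0.17, and 0.18 in 22Rv1, with an interval of -0.01 to 0.37. With the replicate block the change in 22Rv1 was called (adjusted p = 0.029, limma). At single levels it was called in 22Rv1 at 0.5% (0.64 ± 0.23, adjusted p = 0.0335, limma), where the hypoxia arrays read 8.98 and 8.30 against 8.00 and 8.02. Without hypoxia replicate 1 that change was 0.30 (adjusted p = 0.55, limma), and without either control it was no longer called.

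JMJD1C differed between the lines in normoxia. Its controls lay between 8.84 and 9.36 in PC-3 and between 6.20 and 6.84 in 22Rv1, with no overlap. The difference in normoxia was -2.71 ± 0.08 (22Rv1 minus PC-3, adjusted p = 1.96e-25, limma, n = 12 against 12 arrays). A second probe gave -2.77 ± 0.09, and the third was detected on 6 of 12 PC-3 controls and on 0 of 12 in 22Rv1. The change in low oxygen was 0.10 ± 0.08 in PC-3 (adjusted p = 0.459, limma) and 0.26 ± 0.08 in 22Rv1 (adjusted p = 0.00782, limma), higher in 9 of 12 pairs. The second probe gave 0.19 in 22Rv1 (adjusted p = 0.0814 over all probes, limma). The call of the first probe was lost under 2 of 14 other settings, median centring among them (adjusted p = 0.132, limma). At 0.5% O2 in 22Rv1 the hypoxia arrays read 7.48 and 7.03 against 6.32 and 6.47, a change of 0.86 ± 0.20 (adjusted p = 0.00104, limma). Without hypoxia replicate 1 this was 0.63 (adjusted p = 0.0701, limma). The change at 0% (0.48) was called with the replicate block (adjusted p = 0.0231, limma).

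Of the 3 KDM4 enzymes KDM4B rose in both lines. In PC-3 its controls lay between 5.45 and 6.26 (median 5.62) and its hypoxia arrays between 6.08 and 6.72 (median 6.25), higher in 11 of 12 pairs. The mean change was 0.67 ± 0.11 (adjusted p = 1.48e-05, limma), a 1.60-fold rise. In 22Rv1 the controls lay between 4.97 and 5.78 (median 5.50) and the hypoxia arrays between 5.65 and 7.37 (median 6.40), higher in 12 of 12 pairs. The mean change there was 1.05 ± 0.11 (adjusted p = 1.39e-09, limma), a 2.07-fold rise. The ranges of hypoxia and control overlapped in both lines.

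By level, KDM4B in 22Rv1 was called at 1% and below. At 0% both hypoxia arrays read 7.37, against controls at 5.17 and 5.78, and the change was 1.90 ± 0.27 (adjusted p = 1.14e-06, limma). It was 0.45 at 5%, 0.34 at 2%, 1.06 at 1%, 1.28 at 0.5% and 1.27 at 0.2%. The call at 1% was lost without hypoxia replicate 2, when the change was 0.67 (adjusted p = 0.205, limma), or normoxia replicate 1 (0.93, adjusted p = 0.091, limma). At 0.2% the change was 1.01 without hypoxia replicate 1 (adjusted p = 0.093, limma), 0.99 without normoxia replicate 1 (adjusted p = 0.0531, limma) and 0.54 with the doubted labels exchanged. In PC-3 the 0% arrays read 6.64 and 6.72 against 5.45 and 5.68, a change of 1.11 ± 0.27 (adjusted p = 0.00588, limma). That call was lost without normoxia replicate 1 (1.00, adjusted p = 0.0746, limma) or hypoxia replicate 2 (1.08, adjusted p = 0.0544, limma). The PC-3 change at 0.5% (0.84) was called as well with the replicate block (adjusted p = 0.0191, limma).

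KDM4C was higher in 22Rv1, by 0.80 ± 0.14 on the mean over levels (adjusted p = 1.72e-05, limma) and in 12 of 12 pairs. Its 22Rv1 controls lay between 4.70 and 5.78 (median 5.20, detected on 8 of 12) and the hypoxia arrays between 5.14 and 7.23 (median 5.93, detected on 12). These ranges overlapped. Changes were called at 0.5% (1.18, adjusted p = 0.00843, limma) and at 0% (1.39, adjusted p = 0.00195, limma). At 0.5% the arrays read 7.23 and 6.08 against 5.71 and 5.24, and without hypoxia replicate 1 the change was 0.61 (adjusted p = 0.362, limma). Without normoxia replicate 2 it was 0.95 (adjusted p = 0.111, limma). The change at 1% (0.96) was called with the replicate block (adjusted p = 0.00456, limma) and without the 2 doubted arrays (adjusted p = 0.027, limma). In PC-3 the mean change was 0.16, with a 95% confidence interval of -0.12 to 0.44, and the gene was detected on 3 of 12 controls and 5 of 12 hypoxia arrays. KDM4A was detected on 10 of 48 arrays, and its mean change was -0.10 in PC-3 (95% confidence interval -0.34 to 0.15) and 0.19 in 22Rv1 (-0.06 to 0.43). At single levels KDM4A was not called, but at 0% in 22Rv1 its change ranged from 0.22 to 1.00 when single arrays were left out and was called without 1 of them (adjusted p = 0.0361, limma).

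KDM5B, which demethylates H3K4, rose in both lines. In 22Rv1 its changes at 2, 1, 0.5 and 0.2% O2 were all above that at 0%. Of these levels only 0.2%, the neighbour, was tested against 0%, and it did not differ by the adjusted p (limma). The largest step between neighbouring levels, from 5 to 2%, was 0.93 ± 0.40, and it passed 0.05 before adjustment but not after (adjusted p = 0.83, limma). The 22Rv1 controls lay between 7.93 and 8.60 (median 8.25) and the hypoxia arrays between 8.30 and 10.42 (median 9.36). The mean change was 1.18 ± 0.11 (adjusted p = 3.18e-10, limma), a 2.27-fold rise, in 12 of 12 pairs. At 5% the arrays read 8.61 and 8.30 against 8.26 and 8.25, a change of 0.20. They read 9.75 and 9.92 at 1%, 10.42 and 10.09 at 0.5%, and 9.17 and 9.16 at 0%. The changes were 1.13 at 2%, 1.66 at 1%, 1.69 at 0.5%, 1.30 at 0.2% and 1.11 at 0%, each with an SE of 0.28, and all 5 were called. At 0.2% the arrays stood apart, at 10.08 and 8.81, and without hypoxia replicate 1 the change was 0.66 (adjusted p = 0.291, limma). The call at 2% was lost without any one of its 4 arrays, and with the labels of the doubted arrays exchanged neither the 2% nor the 0.2% change was called.

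In PC-3 KDM5B rose by 0.48 ± 0.11 on the mean over levels (adjusted p = 0.00187, limma), a 1.39-fold rise, in 12 of 12 pairs. The controls lay between 6.54 and 7.47 (median 6.90) and the hypoxia arrays between 6.90 and 7.98 (median 7.41), and these ranges overlapped. The changes at single levels lay between 0.32 and 0.62 and 0 were called (1 at an unadjusted p under 0.05). With the replicate block those at 0.5% (adjusted p = 0.0323, limma), 0.2% (adjusted p = 0.0385, limma) and 0% (adjusted p = 0.00786, limma) were called. In normoxia KDM5B was higher in 22Rv1 by 1.28 ± 0.11 (adjusted p = 4.22e-12, limma).

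KDM6B, which removes methyl groups from H3K27, rose in 22Rv1 by 0.86 ± 0.14 (adjusted p = 3.98e-06, limma), a 1.81-fold rise, in 12 of 12 pairs. The 22Rv1 controls lay between 4.72 and 5.91 (median 5.30, detected on 7 of 12) and the hypoxia arrays between 4.90 and 7.47 (median 6.02, detected on 11), and the ranges overlapped. The largest change was at 0.5%, where the arrays read 7.47 and 6.66 against 5.91 and 5.22 (1.5 ± 0.33, adjusted p = 0.000831, limma). It was also called at 1% (1.00), 0.2% (1.06) and 0% (0.95), and each of these 4 calls was lost without single arrays. At 0.5% the change was 1.09 without hypoxia replicate 1 (adjusted p = 0.0696, limma). At 1% it was 0.59 without normoxia replicate 2 (adjusted p = 0.415, limma), and the call was also lost without either hypoxia replicate. At 0.2% it was 0.57 without hypoxia replicate 1 (adjusted p = 0.591, limma), and the call was also lost without either control. At 0% it was 0.72 without normoxia replicate 2 (adjusted p = 0.223, limma), and the call was also lost without either hypoxia replicate. With the doubted labels exchanged the calls at 1, 0.2 and 0% were lost.

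KDM6B in PC-3 was detected on 0 of 12 controls and 3 of 12 hypoxia arrays, which were the pair at 0% and 1 array at 1%. At 0% the hypoxia arrays read 5.58 and 5.18, at least 1.27-fold above the controls, whose signal was not above background. The mean change of 0.34 was not called (adjusted p = 0.0718, limma), but it was with the replicate block (adjusted p = 0.00891, limma), as was the change at 0% (0.71, adjusted p = 0.0432, limma).

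**Figure D2:**
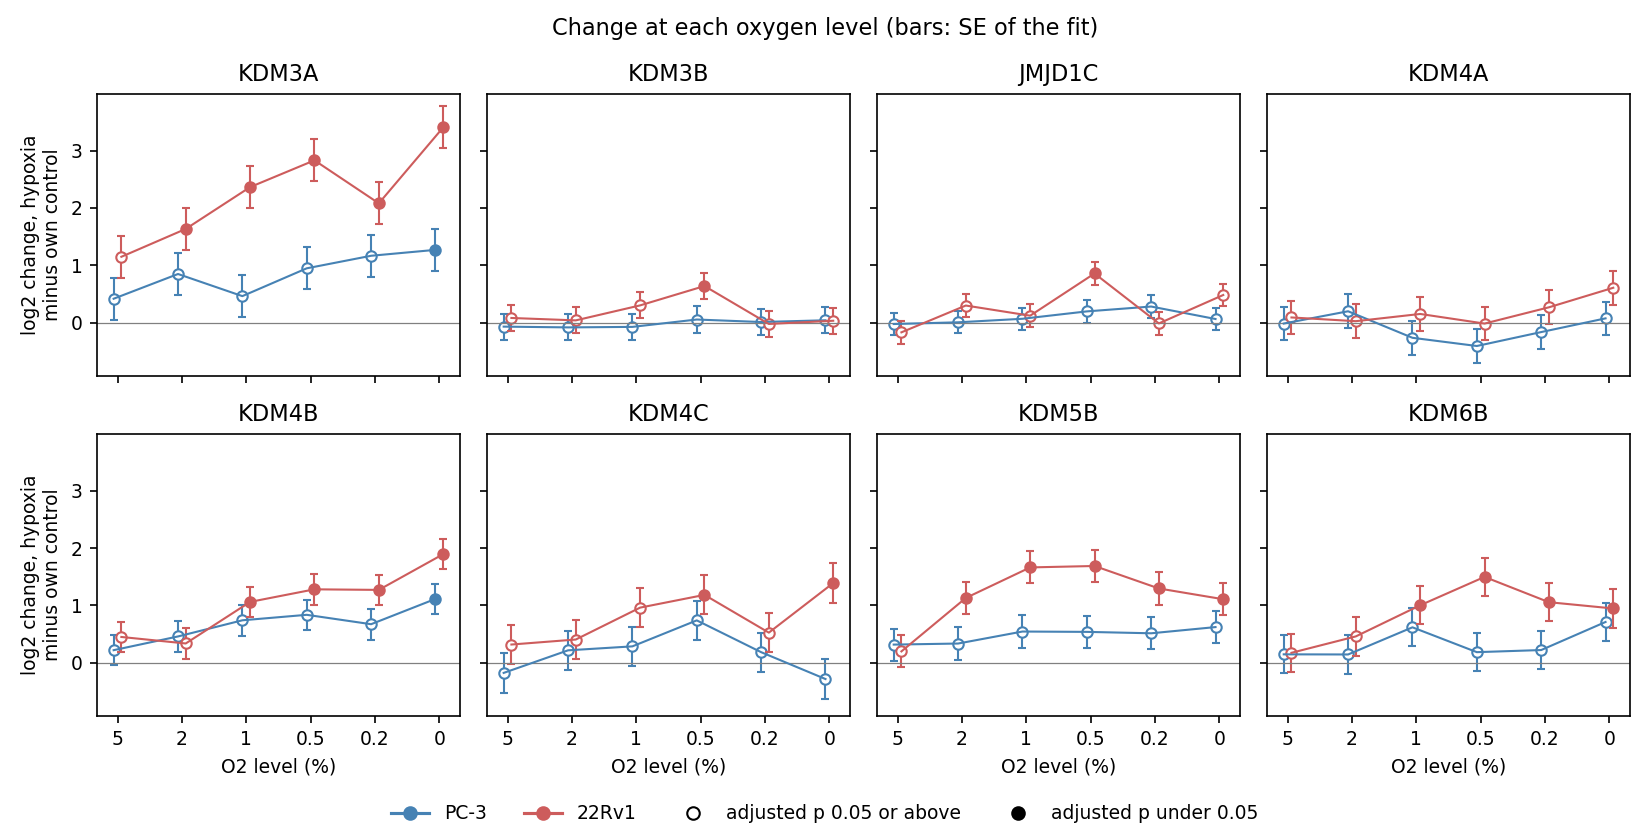
Log2 change, hypoxia minus own control (y axis), at each O2 level in percent (x axis) for PC-3 (blue) and 22Rv1 (red); bars are the SE of the fit, and filled points have an adjusted p under 0.05. KDM3A and KDM4B in 22Rv1 are highest at 0% (3.41 and 1.90), while KDM5B and KDM6B are highest at 0.5% (1.69 and 1.5).

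Counted by level, 0 of the 8 genes were called higher in PC-3 at 5, 2, 1, 0.5 and 0.2% O2 and 2 at 0%. The shares of all genes called higher in PC-3 were 0.00608% at 5%, 0.292% at 2%, 1.16% at 1%, 2.42% at 0.5%, 2.71% at 0.2% and 4.35% at 0%. Before adjustment, at p under 0.05, the counts from 5 to 0% were 0, 1, 1, 3, 2 and 4. By the same rule 682, 966, 1595, 2670, 2669 and 3343 of all 16438 genes passed at these levels. With the replicate block 3 members were called at 0.5%, 2 at 0.2% and 4 at 0%. The shares of all genes called in that fit are not given here. In 22Rv1 0 were called higher at 5%, 2 at 2%, 4 at 1%, 7 at 0.5%, 4 at 0.2% and 5 at 0%. At 5% in 22Rv1 1 passed at an unadjusted p under 0.05, as did 728 of all 16438 genes. The shares of all genes called higher in 22Rv1 were 0.0852% at 5%, 2.85% at 2%, 7.45% at 1%, 13.0% at 0.5%, 5.78% at 0.2% and 13.6% at 0%. The 7 calls at 0.5% included every member except KDM4A. At that level hypoxia replicate 1 was the higher array of the pair for all 7, and without it 3 were called, KDM3A, KDM4B and KDM5B. With the 2 doubted labels exchanged the count at 0.2% was 0, and it was 4 without these 2 arrays. The count at 2% was 0 with the labels exchanged.

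Neighbouring oxygen levels were also set against each other. Of the 8 genes 0 differed between neighbouring levels in either line by the adjusted p (limma). At an unadjusted p under 0.05, 5 of the 40 comparisons of a gene between neighbours in 22Rv1 passed, and 0 in PC-3. By the same rule 901, 793, 1127, 1436 and 3142 of all 16438 genes passed at the steps of 22Rv1, from 5 down to 0%. In PC-3 between 213 and 398 of them passed at a step. Of all genes 8.00% were called in 22Rv1 between 0 and 0.2%, 0.0791% between 2 and 5% and 0 at the other 3 steps. The trend per step from 5 to 0% O2 was positive in 22Rv1 for KDM3A (0.37 ± 0.09, adjusted p = 0.00321, limma) and KDM4B (0.29 ± 0.06, adjusted p = 0.00154, limma), 2 of 8, where 6.64% of all genes had a called positive trend. With the replicate block 5 of 8 did, KDM4C, KDM5B and KDM6B among them, and the share of all genes in that fit is not given here. With the doubted labels exchanged 0 did, and without these 2 arrays KDM5B did too (adjusted p = 0.0257, limma). In PC-3 0 of 8 trends were called, where 0.949% of all genes had a called positive trend. At an unadjusted p under 0.05, 1 of 8 trends in PC-3 passed, as did 1903 of all 16438 genes.

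The rise on the mean over levels was larger in 22Rv1 than in PC-3 for 4 of the 8 genes, by a test of the difference itself. Of all genes 11.2% were called in that direction. The difference was 1.39 ± 0.21 for KDM3A (adjusted p = 8.29e-06, limma), 0.70 ± 0.16 for KDM5B (adjusted p = 0.0015, limma) and 0.64 ± 0.20 for KDM4C (adjusted p = 0.0173, limma). For KDM6B it was 0.52 ± 0.19 (adjusted p = 0.0498, limma), and this call was lost under 6 of 13 other settings and without any one of 34 of the 48 arrays. For KDM4B the difference was 0.38 (95% confidence interval 0.06 to 0.69), not called (adjusted p = 0.0783, limma). It was called with the replicate block (adjusted p = 0.0306, limma), without the 2 doubted arrays (0.47, adjusted p = 0.0238, limma), with pooled controls (adjusted p = 0.0471, limma) and without any one of 8 of the 48 arrays. At single levels 1 of 8 differences was called at 1% O2 (KDM3A), 1 at 0.5% (KDM3A) and 2 at 0% (KDM3A and KDM4C), where 1.45%, 4.64% and 6.58% of all genes were called in that direction. Under the replicate block KDM5B was also called at 1% (1.12, adjusted p = 0.00285, limma), 0.5% (1.15, adjusted p = 0.000781, limma) and 0.2% (0.78, adjusted p = 0.0463, limma). At 0.5% KDM6B (1.31, adjusted p = 0.00742, limma) and JMJD1C (0.66, adjusted p = 0.048, limma) were then called too. Without the 2 doubted arrays KDM5B was called at 0.5% (adjusted p = 0.0211, limma). KDM4C was detected on 5 and KDM6B on 3 of 12 PC-3 hypoxia arrays, and the part of this low signal in the difference was not tested.

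**Figure D3:**
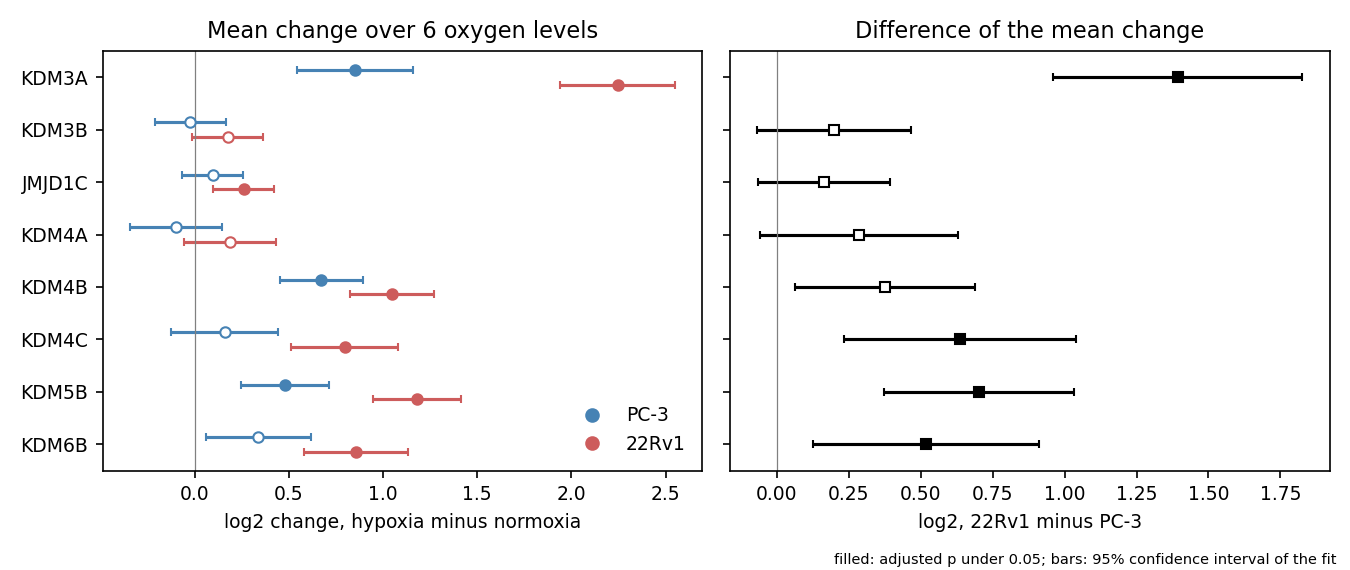
Left, mean log2 change over 6 oxygen levels (x axis) for each gene in PC-3 (blue) and 22Rv1 (red); right, the difference of these changes, 22Rv1 minus PC-3. Bars are 95% confidence intervals and filled points have an adjusted p under 0.05. KDM3A shows the largest difference (1.39), and the intervals of KDM3B, JMJD1C and KDM4A include 0.

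KDM3A started lower in 22Rv1, by 0.97 ± 0.15 in normoxia (22Rv1 minus PC-3 -0.97, adjusted p = 6.85e-07, limma), and at 0% its 22Rv1 arrays (8.41 and 9.03) were above those of PC-3 (7.46 and 7.78). KDM3B was higher in 22Rv1 in normoxia by 0.69 ± 0.09 (adjusted p = 3.99e-08, limma) and KDM6B by 0.63 ± 0.14 (adjusted p = 0.000101, limma). In all 6 of 8 members differed between the lines in normoxia, 3 each way, where 71.8% of all genes did (39.3% higher and 32.5% lower in 22Rv1). KDM4A was among them (-0.26, adjusted p = 0.049, limma), and this call was lost without any one of 16 of the 24 controls. Without the 2 doubted arrays it was also lost, and KDM4B (-0.28, adjusted p = 0.0238, limma) and KDM4C (0.32, adjusted p = 0.028, limma) were called.

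Other JmjC proteins moved in both directions. Of 20 listed 17 were tested. In PC-3 5 rose and 3 fell, and in 22Rv1 6 rose and 4 fell, with median changes of 0.08 and 0.13. Of all genes tested 10.7% rose and 13.3% fell in PC-3, and 19.8% rose and 22.8% fell in 22Rv1. JHDM1D (KDM7A), an H3K9 and H3K27 demethylase, rose by 1.70 ± 0.11 in 22Rv1 (adjusted p = 8.67e-15, limma) and was detected on 0 PC-3 arrays. JARID2, a partner of Polycomb complex 2 without demethylase activity, rose by 0.25 in PC-3 (adjusted p = 0.0396, limma) and by 1.15 in 22Rv1 (adjusted p = 3.54e-12, limma). HSPBAP1 fell by 0.85 in PC-3 and by 0.59 in 22Rv1, and C14orf169 (RIOX1), a ribosomal oxygenase, fell by 0.66 in 22Rv1. The flavin-dependent demethylase AOF2 (KDM1A), which has no JmjC domain, rose by 0.29 in PC-3 (adjusted p = 4.51e-05, limma) and changed by 0.06 in 22Rv1 (adjusted p = 0.386, limma).

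Of 20 further dioxygenases that use oxygen and 2-oxoglutarate, 16 were tested. In PC-3 6 rose and 4 fell, and in 22Rv1 8 rose and 3 fell, with median changes of 0.12 and 0.31. The shares of all genes were 10.7% higher and 13.3% lower in PC-3, and 19.8% higher and 22.8% lower in 22Rv1. The 4 largest changes in 22Rv1 were in collagen hydroxylases: P4HA1 (0.99 in PC-3 and 2.84 in 22Rv1), P4HA2 (1.35 and 2.59), PLOD2 (1.03 and 2.17) and PLOD1 (0.75 and 1.98), all called in both lines. Of the 5 tested HIF subunits 1 rose and 1 fell in PC-3, and 0 rose and 2 fell in 22Rv1. HIF1A fell by 1.21 in PC-3 and by 0.42 in 22Rv1, EPAS1 rose by 0.38 in PC-3, and ARNT2 fell by 0.24 in 22Rv1.

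Genes that place histone methyl marks, and partners of such enzymes, were also counted, beside the shares of all genes tested. Those were 10.7% higher and 13.3% lower in PC-3, and 19.8% higher and 22.8% lower in 22Rv1. Of 5 tested H3K9 methyltransferases 0 rose in either line. SETDB2 fell in both (by 0.50 and 0.37) and SUV39H1 fell by 0.36 in 22Rv1. Of 9 tested genes of H3K4 methylation 3 rose and 1 fell in PC-3, and 4 rose and 3 fell in 22Rv1. MLL3 (KMT2C), MLL4 (KMT2B) and MLL (KMT2A) rose in both lines, by 0.28 to 0.45, and SMYD3 rose by 0.34 in 22Rv1. Of 9 tested genes of H3K27 and H3K36 methylation 1 rose and 0 fell in PC-3, and 1 rose and 4 fell in 22Rv1. The H3K27 methyltransferase EZH2 fell by 0.59 in 22Rv1 (adjusted p = 1.08e-07, limma) and changed by -0.07 in PC-3 (adjusted p = 0.592, limma), and its partner EED fell by 0.39 in 22Rv1. SMYD2 rose by 0.32 in PC-3 and by 1.07 in 22Rv1. WHSC1 (NSD2) passed the test in 22Rv1 at -0.30, with detection on 2 of 12 controls and 0 of 12 hypoxia arrays.

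**Figure D4:**
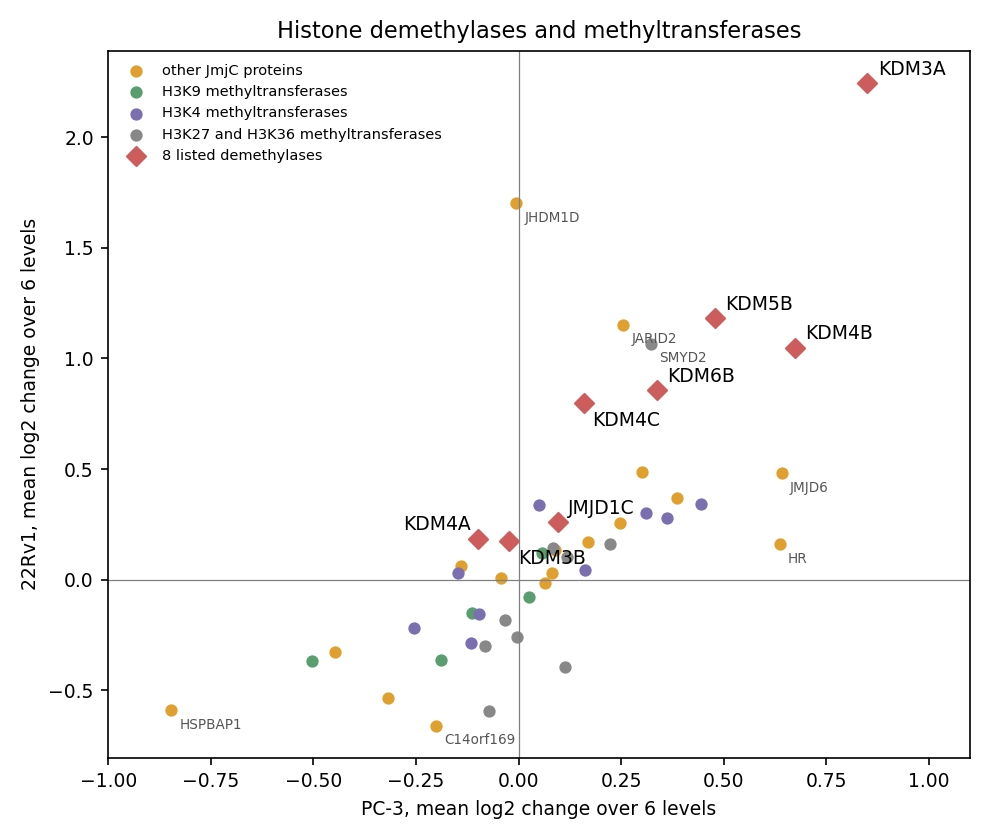
Mean log2 change over 6 oxygen levels in PC-3 (x axis) and 22Rv1 (y axis) for the 8 listed demethylases (diamonds), other JmjC proteins and 3 groups of histone methylation genes (points). KDM3A, KDM5B and KDM4B lie up and to the right (0.85 and 2.24 for KDM3A), and JHDM1D, not detected in PC-3, lies high on the 22Rv1 axis at 1.70.

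The genes whose 12 changes (2 lines by 6 levels) were most like those of each gene called in both lines were named by Pearson's r, as a description over 12 points that share arrays within a level, among 2163 genes. For KDM3A they were P4HA1 (0.985), HK2 (0.979), PPP1R15A (0.977) and BCL11A (0.976). For KDM4B they were MAPRE3 (0.955), NFE2L1 (0.953), DUSP5 (0.951) and VASN (0.948). For KDM5B they were RRAS (0.982), PTK6 (0.968), FKBP9L (0.968) and FGF11 (0.966). The 3 lists share 0 genes.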

How the data were processed

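RNA of PC-3 and 22Rv1 cells was hybridised to Illumina bead arrays. The deposited intensities are mean bead signals per probe, for which the submitters' processing notes name BeadStudio 3.1.3.0. Nothing in the values points to a background subtraction. The deposited detection p-values compare each probe with negative controls. A second deposited table of processed intensities served as an alternative; the sources used here do not give its normalization. These tables exchange 2 of 48 arrays, and 46 have the same label.

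Intensities were background-corrected and quantile normalized in limma 3.58.1 (neqc, offset 16, R 4.3.3). A probe was kept when detected (p under 0.01) on at least 2 arrays (21132 probes), and the brightest kept probe stood for its symbol. One mean was fitted for each of 24 groups with moderated variances and an intensity trend, leaving 24 residual degrees of freedom. P-values were adjusted over 16438 genes, with a threshold of 0.05. The number of arrays limits the precision. The code was tested on simulated data.

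The members, lists, tests and alternatives were chosen with earlier results of these data known. All members were named, with the 4 members of each list that had the largest called mean change in either line. Likeness was measured among genes detected on at least 24 arrays with a change of at least 1 somewhere.

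Replicate numbers come from the labels. Same-numbered hypoxia and control arrays of a level deviated together from their group means (r from 0.326 to 0.471 in PC-3 and from 0.180 to 0.447 in 22Rv1). The numbers were therefore taken to pair the arrays, and blocked values are given where they change a call. Arrays of different levels were not compared in this way, so a shift common to all arrays of a replicate number cannot be told apart from pairing. The 6 control groups of a line were compared by an F-test, in which 0 members were called. Of all genes tested, 0 were called by it in either line. With 2 arrays per group and no gene called, this F-test cannot tell whether the members were stable among the controls. Promoter windows and figures used Python 3.11.15, pandas 2.3.3 and matplotlib 3.10.9.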

Additional observations from a re-analysis of the deposited data

Results flagged for a closer look

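Changes that differed between the lines, by a test of the difference itself (22Rv1 minus PC-3, limma), are listed with their adjusted p. On the mean over levels the difference was 1.39 for KDM3A (8.29e-06), 0.70 for KDM5B (0.0015), 0.64 for KDM4C (0.0173) and 0.52 for KDM6B (0.0498). At single levels it was called for KDM3A at 1% (1.90, adjusted p = 0.0434), 0.5% (1.89, adjusted p = 0.0187) and 0% O2 (2.14, adjusted p = 0.00439). KDM4C differed at 0% (1.68, adjusted p = 0.0176), where PC-3 detected it on 1 of 2 hypoxia arrays. Each of these 4 calls at a single level was lost without at least 1 array, and with 1 array left out the lowest differences were 1.52, 1.54 and 1.69 for KDM3A at 1, 0.5 and 0% and 1.34 for KDM4C. The 3 KDM3A calls at a level were also lost with the doubted labels exchanged (adjusted p = 0.296, 0.125 and 0.0599).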

How the results depend on the processing

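Over 14 alternative settings 0 results reversed, where a sign that turned while not called was not counted as a reversal (23 such under median centring, 13 with pooled controls, 8 with the doubted labels exchanged, 8 in the authors' processed table, 4 with the mean of probes, 4 without the doubted arrays and 0 under the other 8 settings). The calls on the mean over levels held under every setting for KDM3A, KDM4B and KDM5B in both lines and for KDM4C and KDM6B in 22Rv1; the KDM3A change in 22Rv1 ranged from 1.09 to 2.31. With the replicate block, the count of members called higher was 3 at 0.5%, 2 at 0.2% and 4 at 0% in PC-3 and 1 at 5% in 22Rv1, and 5 had a positive trend in 22Rv1. The block changed no count on the mean by over 1.5 times. The shares of all genes called under the alternative settings are not given here. With the 12 controls of a line pooled, 1, 2, 2 and 4 members were higher in PC-3 at 1, 0.5, 0.2 and 0%, and 1 trend in PC-3 and 6 in 22Rv1 were called. Each line alone gave 1 at 0.5% and 1 at 0.2% in PC-3, and array weights and no background correction each gave 1 at 0.2%. Median centring gave 1 at 0% in PC-3 and 1 at 2% in 22Rv1. The authors' processed table and the exchanged labels each gave 1 at 0% in PC-3 and 0 at 2% and 0 at 0.2% in 22Rv1, with 1 and 0 positive trends in 22Rv1. The processed table carries the exchanged labels, and the causes of the other changes were not tested. Without single arrays the counts ranged from 0 to 2 at 0% in PC-3, and in 22Rv1 from 0 to 1 at 2%, 2 to 3 at 1%, 3 to 7 at 0.5%, 1 to 5 at 0.2% and 4 to 6 at 0%, with 2 to 4 positive trends. On the mean 3 or 4 were called in PC-3 and 6 or 7 in 22Rv1. An arm left with 1 array was taken to vary like the other groups. Signal over background limits KDM4A, KDM4C and KDM6B, above all in PC-3.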
